A study of Mus musculus with 4 samples.

Results

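The immediate early genes Fos, Fosb, Jun, Junb, Egr1, Atf3, Ier2, Dusp1, Btg2 and Zfp36 were followed through immune cells of the mouse brain and dura mater. These members were chosen by name, as genes that respond early to stimulation, and all 10 of them are among the 19491 gene symbols listed in the 4 deposited matrices. The libraries hold CD45+ cells sorted from the brain or the dura mater of 8-week-old C57BL/6J mice, 3 days after photothrombotic injury, which damages vessels of the dura mater and of the brain beneath it (D3), or in controls, which the labels call CT and which were taken as the sham group S3 of the study. Each of the 4 conditions (brain S3, brain D3, dura mater S3, dura mater D3) is 1 droplet library prepared with the 10x Chromium 3′ kit, and how many mice went into a library is not given in the sources used here. Both tissues were digested with enzymes at a warm temperature before sorting, and all 4 groups share that step.

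Immediate early genes are transcribed within minutes of a signal from pre-existing transcription factors, without new protein synthesis, and their mRNAs decay quickly. Fos, Fosb, Jun, Junb and Atf3 encode basic leucine zipper proteins that pair to form AP-1 and related dimers, Egr1 encodes a zinc finger activator, and Ier2 encodes a small nuclear protein. Dusp1, a phosphatase of MAP kinases, Btg2, an antiproliferative protein that recruits the deadenylation machinery, and Zfp36 (tristetraprolin), which binds AU-rich mRNAs and promotes their decay, act as brakes on the response. Macrophages and other leukocytes carry these transcripts after activation, and warm tissue dissociation is known to induce them together with heat shock genes.

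Promoters of 8 members could be examined, and 4 promoters are shown. These were chosen for the motif each one holds and do not stand for the others. Each is the 250 bases before the gene's start in RefSeq (GRCm38.p6), written along the gene's own strand. Capitals mark a CArG box, the site of serum response factor, and TGACG, which is part of the site of CREB and ATF proteins.
Fos: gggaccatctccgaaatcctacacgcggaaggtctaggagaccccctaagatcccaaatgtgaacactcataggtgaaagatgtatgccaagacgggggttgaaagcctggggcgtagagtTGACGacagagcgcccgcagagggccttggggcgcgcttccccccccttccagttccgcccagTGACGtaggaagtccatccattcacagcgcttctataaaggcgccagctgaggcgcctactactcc
Dusp1: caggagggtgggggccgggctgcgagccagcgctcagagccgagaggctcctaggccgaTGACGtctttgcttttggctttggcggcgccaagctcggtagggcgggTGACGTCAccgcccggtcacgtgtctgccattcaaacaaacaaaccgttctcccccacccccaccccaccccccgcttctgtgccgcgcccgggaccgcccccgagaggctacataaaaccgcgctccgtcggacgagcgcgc
Btg2: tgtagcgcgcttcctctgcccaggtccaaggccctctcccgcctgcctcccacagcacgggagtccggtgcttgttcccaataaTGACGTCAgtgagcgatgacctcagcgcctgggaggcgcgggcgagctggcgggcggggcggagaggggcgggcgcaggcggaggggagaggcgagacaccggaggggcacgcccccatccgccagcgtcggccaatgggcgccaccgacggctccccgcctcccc
Zfp36: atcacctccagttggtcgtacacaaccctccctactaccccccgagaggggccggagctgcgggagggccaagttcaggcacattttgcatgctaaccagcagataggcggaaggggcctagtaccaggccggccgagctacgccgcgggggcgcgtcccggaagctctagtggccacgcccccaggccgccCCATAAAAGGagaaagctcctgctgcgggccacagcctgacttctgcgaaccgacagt

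The Fos window is chr12:85473640-85473889 on the plus strand. On the minus strand lie the windows of Dusp1, chr17:26508473-26508722, of Btg2, chr1:134079156-134079405, and of Zfp36, chr7:28379229-28379478. Dusp1 and Btg2 each hold the full palindrome TGACGTCA, ending 135 bases before the start in Dusp1 and 158 bases before it in Btg2, and 1.55% of all 32851 promoter windows of this length hold it. Zfp36 holds a CArG box that ends 48 bases before its start, a motif found in 1.47% of all windows. Both strands were searched in the 8 members that matched the RefSeq table, which were all but Egr1 and Ier2. TGACG, which is contained in TGACGTCA, was found in 6 of the 8 (17.8% of all windows), all but Jun and Zfp36. GGGCGG was found in 7 of the 8 (32.7%), all but Junb, TATAAA in Fos alone (12.4%), and the AP-1 site TGANTCA in 0 of the 8 (6.75%). These are matches of letters and not measured sites.

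The deposited values were turned back into UMIs (unique molecular identifiers, 1 per captured mRNA molecule). After filtering, 14098 cells with 192168740 UMIs were kept, and 8252 to 14269.5 UMIs was the range of the median per cell over libraries. The sort marker Ptprc was detected in 91.9% to 95.5% of the cells kept. Classes were gated per cell on marker genes and are called X-like, and the 48 groups of 1 class in 1 library with at least 50 cells hold 11467 cells in 16 classes. Of those cells, 8.22% lay within 0.05 of a gate's limit. Between 3 and 11 barcodes were shared by any pair of libraries. Levels are given in CPM, the UMIs of a gene scaled to 1000000 UMIs of its group. The summed non-immune markers lay between 35.6 and 340 CPM in 46 of the 48 groups. The exceptions were ILC2-like cells of dura mater D3 (8916) and B cell-like cells of dura mater S3 (1525), where the globin gene Hbb-bs gave 6923 and 1103. With 1 library per condition there is no test of any difference, and the 95% intervals given (exact Poisson or binomial) cover counting error only and not the spread between mice. Capture differs between transcripts, so the levels of a gene are compared between groups and not with those of another gene.

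The summed level of the 10 genes spanned 2580 CPM in B precursor-like cells of the dura mater to 33951 in mast cell-like cells of the same library. The median over the 48 groups was 8817. Mast cell-like cells ranked first and second (33951 at S3 and 30905 at D3), followed by microglia-like cells of brain S3 (22619) and by the 4 groups of border macrophage-like cells and 3 groups of ILC2-like cells, which lay between 14713 and 19146. Immature neutrophil-like cells (3194 to 4598), B cell-like cells (4101 to 6042) and T cell-like cells of the brain (5652 and 6056) were among the lowest groups. The map of levels shows that no class was high for all 10 genes.

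**Figure D1:**
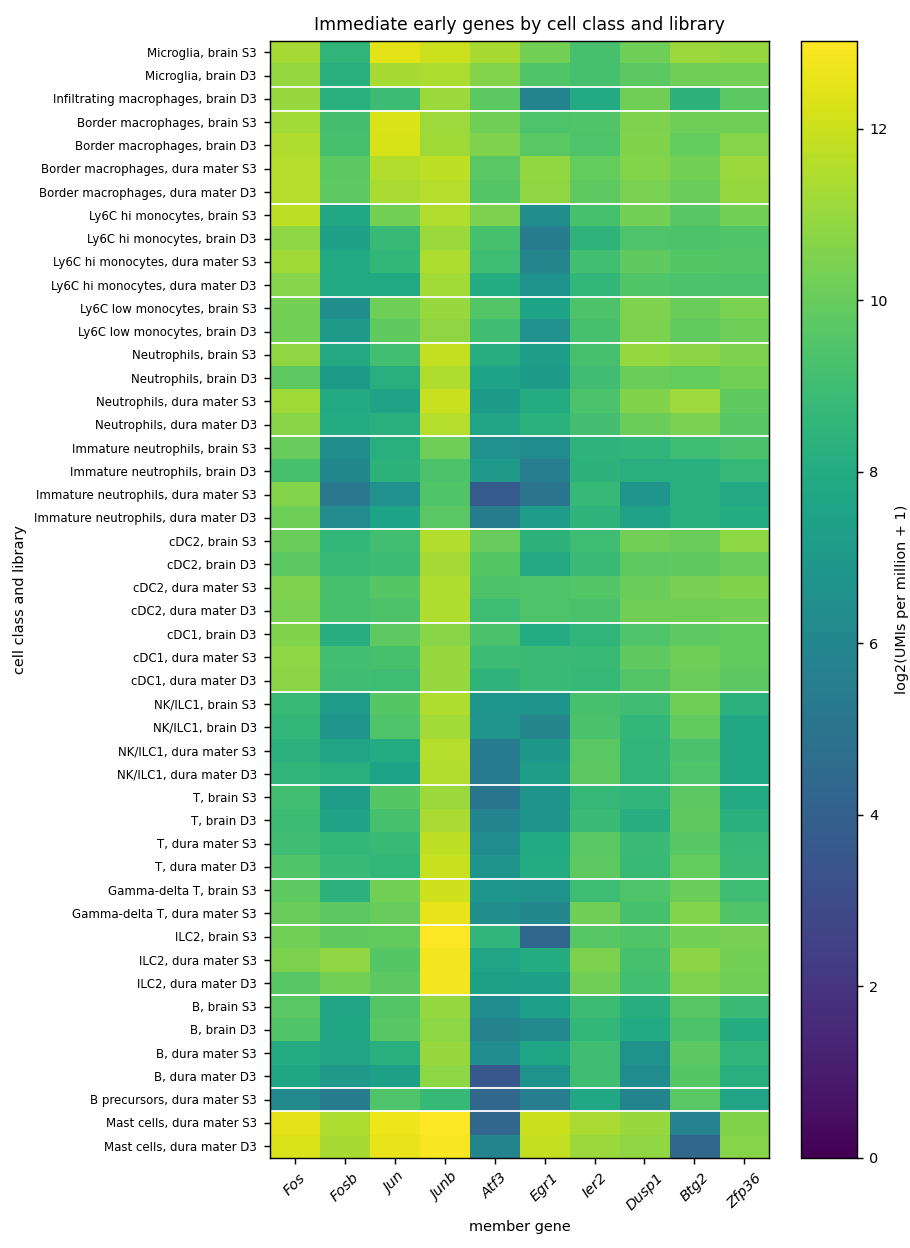
Levels of the 10 genes (columns) in the 48 groups of class and library (rows), as log2(CPM + 1). Mast cell-like cells are high for Fos, Fosb, Jun, Junb, Egr1 and Ier2 and low for Atf3 and Btg2, and ILC2-like cells stand out for Junb.

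A similar, though not identical, order was seen within single cells. With every cell thinned to 2000 UMIs, so that depth is equal, the median mast cell-like cell held 70 UMIs of the 10 genes at S3 and 64 at D3. The median microglia-like cell held 43 at S3 and 29 at D3, and the median immature neutrophil-like cell held 5 to 8. Border macrophage-like cells of the dura mater spread widely. Their 10th and 90th percentiles were 4 and 67 UMIs at S3 and 2 and 67.6 at D3, and 3.98% and 5.55% of these cells had no UMI of any member after thinning. In border macrophage-like cells of the brain these percentiles were 15 and 62 at S3 and 10 and 85.6 at D3. Microglia-like cells spread widely too, with 15.5 and 85 at S3 and 8 and 73.7 at D3.

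**Figure D2:**
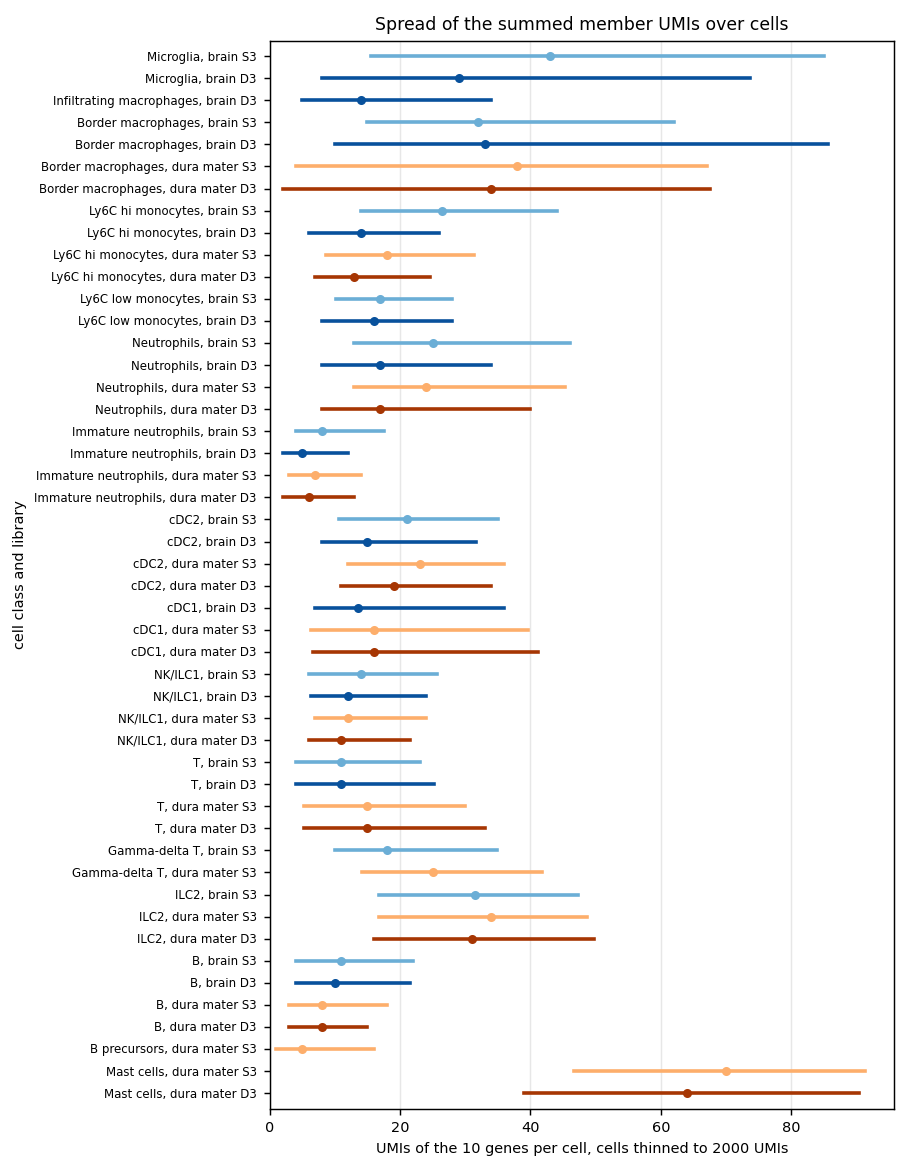
Summed UMIs of the 10 genes per cell after thinning each cell to 2000 UMIs; points are medians and bars run from the 10th to the 90th percentile of cells, in light blue for brain S3, dark blue for brain D3, light orange for dura mater S3 and dark orange for dura mater D3. Medians run from 5 in B precursor-like cells to 70 in mast cell-like cells of dura mater S3.

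Among the AP-1 genes, Fos was highest in mast cell-like cells, at 5746 CPM (interval 5586 to 5909) in S3 and 5174 in D3. Outside them its highest level was 3547 in Ly6C hi monocyte-like cells of brain S3, and its lowest was 75.0 in B precursor-like cells. Fosb was highest in mast cell-like and ILC2-like cells. Its level was 2718 and 2598 in mast cell-like cells of S3 and D3, and 1835, 1235 and 926 in ILC2-like cells of dura mater S3, dura mater D3 and brain S3, against a median of 270.5 over all groups. Jun had its highest levels in mast cell-like cells (6754 and 6268), microglia-like cells of brain S3 (5803) and border macrophage-like cells of the brain (4953 at S3 and 4857 at D3). The next level in that order was 2947, in border macrophage-like cells of dura mater S3.

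Junb was found in 54.6% to 100% of thinned cells over the 48 groups, with a median of 93.4%. Its level was 8359 and 7526 in mast cell-like cells and 8200, 7227 and 7137 in the ILC2-like groups of brain S3, dura mater S3 and dura mater D3, ahead of gamma-delta T cell-like cells of dura mater S3 at 6236. Atf3 was highest in some myeloid classes, but it was low in mast cell-like cells and in immature neutrophil-like cells of the dura mater. Microglia-like cells had the 2 highest levels, 2570 (2525 to 2615) at S3 and 1563 (1539 to 1587) at D3, while T cell-like groups lay between 31.9 and 107 and B cell-like groups between 10.4 and 80.7. In B cell-like cells of dura mater D3, 1.56% of thinned cells had an Atf3 UMI, the smallest share of any group (median depth 5287.5 UMIs), against 82.8% in microglia-like cells of brain S3 (9658 UMIs).

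Egr1 was high in few kinds of cells. Its level was 4060 and 3702 in mast cell-like cells at S3 and D3, 1949 and 1854 in border macrophage-like cells of the dura mater, and 1285 and 711 in microglia-like cells, against a median of 158.9 over groups. In border macrophage-like cells of the brain it was 699 at S3 and 823 at D3. In most other classes it sat in a minority of cells, and 3.45% of thinned ILC2-like cells of brain S3 had a UMI of it against 100% of mast cell-like cells of S3. Over the 48 groups the 10% of cells with the most Egr1 UMIs held a median of 61.7% of them, compared with 26.0% for Junb. The lowest Egr1 level, 18.7 in ILC2-like cells of brain S3, rests on 8 UMIs. Ier2 varied less, from 213 in B precursor-like cells to 2658 in mast cell-like cells of S3, and its highest level elsewhere was 1396 in ILC2-like cells of dura mater S3.

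The brakes differed in where they were found. Dusp1 was highest in mast cell-like cells (2065 and 1837) and in neutrophil-like cells of brain S3 (2012), and lowest in B precursor-like cells (57.1). Zfp36 was highest in border macrophage-like cells of the dura mater (2131 and 1990) and microglia-like cells of brain S3 (2037). Btg2 had a pattern of its own. It reached 2191 in neutrophil-like cells of dura mater S3 and 2165 in microglia-like cells of brain S3, was 814 in B precursor-like cells, near its median of 964 over groups, and was lowest in mast cell-like cells.

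Mast cell-like cells therefore combined the highest levels of 7 members with almost no Btg2 and Atf3. Btg2 was 52.9 CPM (38.6 to 70.8) at S3 and 18.8 (11.3 to 29.3) at D3, and 3.70% and 3.23% of thinned cells had a UMI of it. In the 46 other groups 40.0% to 95.9% of thinned cells did. Atf3 was 18.8 (10.8 to 30.6) and 57.3 (43.5 to 74.0). The 108 cells of S3 and 93 cells of D3 had median depths of 8097.5 and 10463 UMIs, within the range of the other groups. Their summed level of 12 heat shock genes was 8194 at S3 and 9446 at D3. The latter was the highest of the 11 groups of dura mater D3 (median 6931), and the former lay above the median of 6781 in dura mater S3, and their part in the result was not tested. Between D3 and S3, 8 of the 10 genes in these cells were within a log2 ratio of 0.33 of each other, Atf3 was 2-fold or more higher (log2 1.61, interval 0.79 to 2.50) and Btg2 was 2.82-fold lower (log2 interval -2.35 to -0.69). Over all genes with at least 50 UMIs in this comparison 0.583% were 2-fold or more higher and 1.12% lower.

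The first comparison the design gives is injury against sham in the brain. In brain D3 the summed level of the members was lower than in brain S3 in 8 of 10 classes, and the median log2 ratio (D3/S3) was below 0 in 8. The 2 exceptions were border macrophage-like and T cell-like cells. The lowest median, -0.81, was in Ly6C hi monocyte-like cells. Single members were higher at D3 in 1 to 5 of the 10 classes. With cells thinned they were higher in 1 (Dusp1) to 6 (Ier2), and Egr1, Jun and Junb in 4 each.

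In microglia-like cells (436 at S3 and 634 at D3) Jun was 5803 CPM at S3 and 2530 at D3, 2.29-fold lower (log2 -1.20, interval -1.22 to -1.17). Btg2 was 2165 and 1184, Egr1 1285 and 711, and Atf3 2570 and 1563. Ier2 did not differ beyond counting error (610 and 608). No member was higher at D3, and the median log2 ratio was -0.65, beside -0.15 over all 10029 genes tested. Of the 10 members 1, Jun, was 2-fold or more lower, against 3.78% of all genes. The size depended on how cells were weighted. After thinning to 2000 UMIs the median was -0.36 and Jun -0.69, so that no member was past 2-fold. Heat shock genes moved with the members. Hspa1a, an inducible chaperone, was 3935 at S3 and 1014 at D3, 6 of the 12 heat shock genes were 2-fold or more lower with 0 higher, and their part in the result was not tested. The class also differed in make-up. At least 2 proliferation markers, such as Mki67 and Top2a, were detected in 0.92% of cells at S3 and 18.0% at D3. The part of these cells in the result was not tested.

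In Ly6C hi monocyte-like cells all 10 genes were lower at D3. Fos was 3547 CPM in brain S3 and 1794 in brain D3, Atf3 1413 and 613, Jun 1248 and 450, Dusp1 1261 and 704, and Zfp36 1249 and 728. Jun (log2 -1.47, -1.53 to -1.41) and Atf3 (-1.21, -1.26 to -1.15) were 2-fold or more lower, 2 of 10 members against 3.56% of all genes, and the median was -0.81 beside -0.08 for all genes. With classes from clusters, thinning or equal weight per cell 4 members were past 2-fold. Junb (2930 and 2134) and Btg2 (790 and 663) had smaller differences. Cytokine transcripts of the same cells differed in both directions, with Cxcl2 (186 and 1578) and Il1b (1348 and 4147) higher at D3 and the chemokine gene Ccl3 (1040 and 363) lower. Among the heat shock genes Hspa1a was 2060 and 571 and Hspa1b 857 and 182, while the median of the 12 was -0.05. The summed non-immune markers were 127 and 56.6, with the myelin gene Mbp at 91.7 and 42.3. The part of either group in the result was not tested.

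Neutrophil-like cells of the brain gave lower values for all 10 genes too, with a median of -0.67 beside 0.03 over all genes. Fos was 1859 CPM at S3 and 888 at D3 (log2 -1.07, -1.15 to -0.98), Dusp1 2012 and 1108, Btg2 1741 and 988, and Jun 551 and 283. For Egr1 (155 and 134) the interval held 0. Fos alone was 2-fold or more lower, 1 of 10 members against 2.91% of all genes. With classes from clusters 6 members were, with a median of -1.03, and with no filter on cells 0 were. Jun sat in few of these cells. The 10% of cells with the most Jun held 81.9% of its UMIs at S3, and its log2 ratio was -0.96 over all UMIs and -0.38 after thinning. Cxcl2, a neutrophil chemokine, was 2760 at S3 and 7436 at D3 in the same cells. Of the 12 heat shock genes 3 were 2-fold or more lower, among them Hspa1b (318 and 59.2) and Hspa1a (390 and 149), and their part in the result was not tested. The class also differed in its gate markers. The least often detected was Trem1 at S3, in 89.2% of cells, and Retnlg at D3, in 69.5%. The part of this difference in the result was not tested.

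Border macrophage-like cells of the brain showed no such difference. Jun was 4953 CPM at S3 and 4857 at D3, Junb 2263 and 2326, and Fos 2426 and 2895, and Zfp36 had the largest ratio (1178 and 1604, log2 0.45, 0.37 to 0.52). The median was 0.05 beside -0.08 over all genes, and it ran from 0.04 to 0.33 under the 8 alternatives. Of the 10 members 0 were 2-fold or more apart, against 3.85% of all genes. In T cell-like cells Atf3 was 31.9 and 57.7 (log2 0.85, 0.40 to 1.29) and Jun 781 and 595 (-0.39, -0.52 to -0.27), with a median of 0.15. The 5 remaining classes had medians of -0.55 in immature neutrophil-like cells, -0.31 in cDC2-like cells, -0.23 in NK/ILC1-like cells, -0.22 in B cell-like cells and -0.17 in Ly6C low monocyte-like cells.

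**Figure D3:**
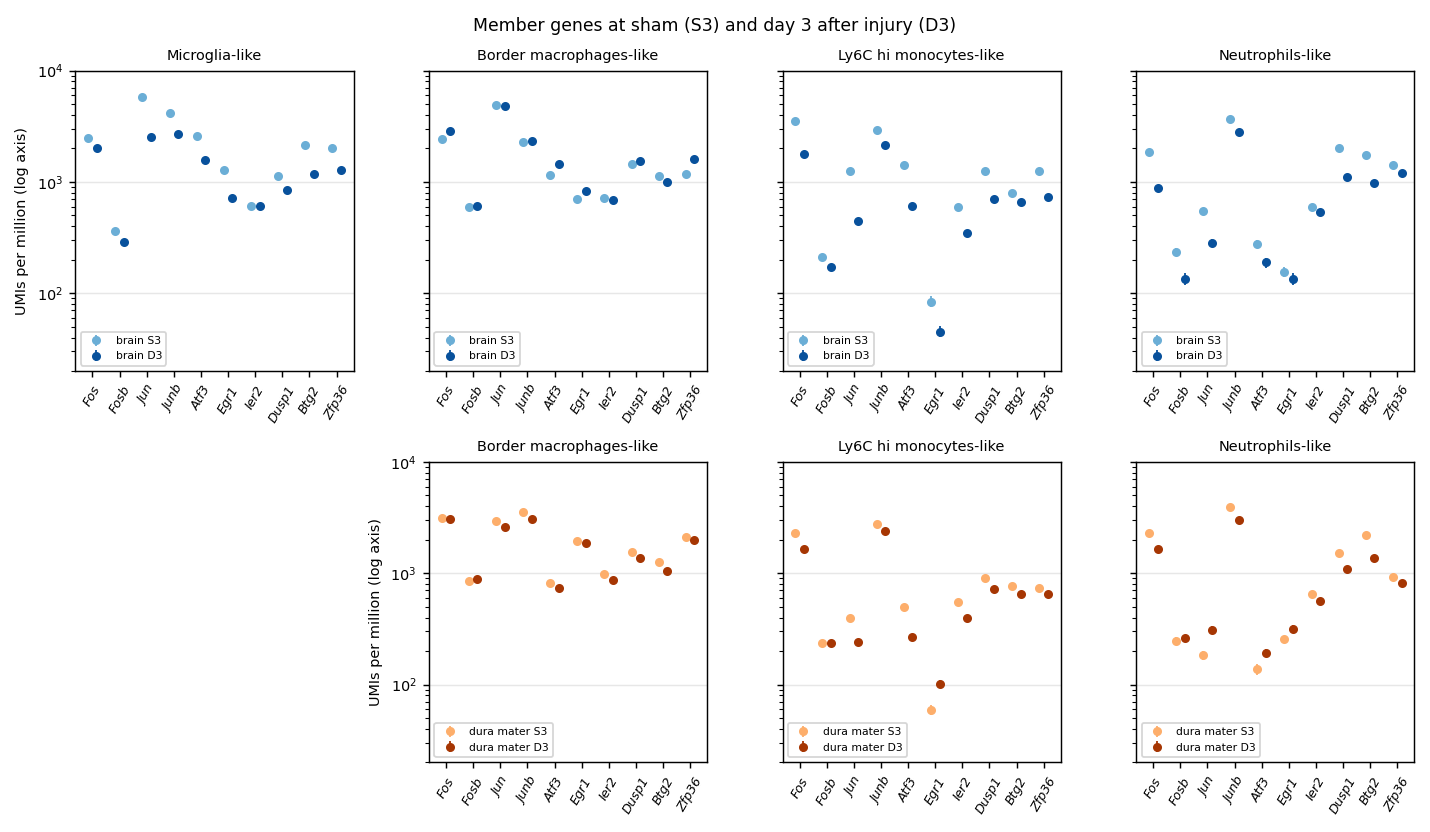
Levels in CPM (log axis) of the 10 genes at S3 (light) and D3 (dark) in brain (blue) and dura mater (orange); bars are exact 95% Poisson intervals, mostly smaller than the points. In the brain every gene is lower at D3 in Ly6C hi monocyte-like and neutrophil-like cells, whereas in border macrophage-like cells the points of S3 and D3 lie close together.

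In the dura mater the median D3/S3 ratio was below 0 in 8 of 11 classes, and the medians ran from -0.36 in B cell-like to 0.46 in immature neutrophil-like cells. Border macrophage-like cells had a median log2 ratio of -0.16, with Fos 3107 CPM at S3 and 3048 at D3, Jun 2947 and 2621, and Egr1 1949 and 1854, and 0 of 10 members were past 2-fold (2.05% of all genes were). In Ly6C hi monocyte-like cells Atf3 was 501 and 265 (log2 -0.92, -1.01 to -0.83), Jun 398 and 243 (-0.71) and Fos 2297 and 1638 (-0.49), while Egr1 was 59.2 and 101 (0.78, 0.58 to 0.97). The median was -0.29, with 0 of 10 members past 2-fold against 2.89% of all genes (1 under 5 of the 8 alternatives). Hspa1a was 979 and 99.5 and Hspa1b 325 and 42.4 in these cells, 3 of 4 non-immune markers measured were 2-fold or more lower (sum 136 and 80.4), and their part in the result was not tested. In neutrophil-like cells Btg2 was 2191 and 1379 (-0.67) and Dusp1 1522 and 1090 (-0.48), while Jun was 183 and 311 (0.77). The median was -0.20, and 0 of 10 members were past 2-fold against 9.43% of all genes. Of the 10 heat shock genes measured 3 were 2-fold or more higher, with Hspa1a at 50.6 and 156.

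In B cell-like cells of the dura mater Atf3 was 78.7 and 10.4 (8 UMIs), the 1 member of 10 that was 2-fold or more lower, against 2.04% of all genes. Genes of other cells and stress genes were lower with it, Hbb-bs at 1103 and 6.52, Hba-a1 at 283 and 3.91, Ccl2 at 114 and 32.6 and Hspa1a at 162 and 10.4, and their part in the result was not tested.

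Immature neutrophil-like cells of the dura mater had a median log2 ratio above 0 (0.46). Their summed level did not rise, at 3523 CPM in S3 and 3499 in D3. Egr1 was 31.5 CPM at S3 and 144 at D3 (log2 2.20, 1.96 to 2.44), Atf3 12.1 and 45.3 (1.91) and Fosb 35.7 and 76.6 (1.10). These 3 of 10 members were 2-fold or more higher, against 2.43% of all genes, and Fos was lower (1589 and 1133). Few cells carried these UMIs, since 82.7% of the Egr1 UMIs at D3 lay in 10% of the cells. Genes of other cell types moved with them. Col1a1, a fibroblast collagen, was 2.18 at S3 and 38.0 at D3, and the chemokine gene Ccl2 was 10.2 and 135, and their part in the result was not tested.

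The second comparison sets the same class side by side in brain and dura mater, and here the members did not move as a block. At S3 Jun was higher in the brain in 9 of 10 classes, the exception being cDC2-like cells (534 CPM in brain and 764 in dura mater), and it was 2-fold or more higher in 5. Over these 10 comparisons 0.582% to 3.63% of all genes were 2-fold or more higher in the brain. Atf3 was also higher in the brain in 9 of 10 classes, with T cell-like cells as the exception. Egr1 was lower in the brain in 7 of 10 classes and 2-fold or more lower in 4, Fosb was lower in 9 and Ier2 lower in 9, and the share of all genes 2-fold or more lower was 0.896% to 8.36%. Junb lay between -0.73 and 0.67 on the log2 scale. The highest median log2 ratio, 1.34, was in immature neutrophil-like cells (66 in brain and 318 in dura mater). There 8 of 10 members were higher in the brain, 6 of them 2-fold or more, against 3.63% of all genes, and Fos was lower (-0.63). At D3 the median of this class was -0.01. Its summed non-immune markers at S3 were 239 CPM in brain and 50.3 in dura mater, and their part in the result was not tested.

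The D3 libraries share no sample with the S3 libraries. At D3 Egr1 was lower in the brain in 9 of 9 classes and 2-fold or more lower in 7, where 0.941% to 7.78% of all genes were. Ier2 and Junb were lower in 9 of 9 and Fosb in 8 of 9. Jun was higher in 7 of 9 and Atf3 in 7 of 9. For Jun the exceptions were cDC2-like (492 in brain and 674 in dura mater) and neutrophil-like cells (283 and 311). For Atf3 they were T cell-like (57.7 and 107) and neutrophil-like cells (189 and 192). With cells thinned, Egr1 and Ier2 were lower in 8 of 9 classes and Junb and Fosb in 7 of 9. Jun was then higher in 9 of 9 and Atf3 in 7 of 9.

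Border macrophage-like cells carry both patterns at high counts. Jun was 4953 CPM in brain S3 and 4857 in brain D3, against 2947 and 2621 in the dura mater (log2 0.75, 0.71 to 0.79, at S3 and 0.89, 0.86 to 0.92, at D3). Egr1 was 699 and 823 in the brain against 1949 and 1854 in the dura mater (-1.48, -1.57 to -1.39, and -1.17, -1.24 to -1.11). Egr1 was the 1 member of 10 past 2-fold at S3, lower in the brain as were 4.38% of all genes.

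The lymphoid classes at S3 shared some of the members past 2-fold and differed in others. T cell-like cells had Fosb at 151 CPM in brain S3 and 393 in dura mater S3, Ier2 at 410 and 840, Egr1 at 106 and 238, and Atf3 at 31.9 and 79.6. These 4 of 10 members were 2-fold or more lower in the brain, against 6.06% of all genes, while Jun was 781 and 454. B cell-like cells had Fos at 820 and 253 (log2 1.69, 1.56 to 1.83), Dusp1 at 278 and 100.1 (1.47) and Jun at 738 and 310 (1.25), so that 3 of 10 members were 2-fold or more higher in the brain, against 1.91% of all genes. NK/ILC1-like cells had Jun at 785 and 257 and Atf3 at 113 and 38.6, 2 of 10 members against 2.64%. Gamma-delta T cell-like cells had 2 of 10 members 2-fold or more lower in the brain, against 3.03% of all genes. Among them was Ier2 (log2 -1.23), as in T cell-like cells. ILC2-like cells had Egr1 at 18.7 and 270, of which the brain value is 8 UMIs. It was the 1 member of 10 past 2-fold there, against 3.02% of all genes 2-fold or more lower.

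Ly6C hi monocyte-like cells at S3 had 9 of 10 members higher in the brain. Jun was 1248 CPM in brain and 398 in dura mater (log2 1.65, 1.58 to 1.72), Atf3 1413 and 501 (2.82-fold higher), Zfp36 1249 and 735 and Fos 3547 and 2297. Jun and Atf3 were 2-fold or more higher, 2 of 10 members against 0.582% of all genes. At D3 Jun (450 and 243) and Atf3 (613 and 265) were again higher in the brain. Brain S3 is also the reference of the injury comparison above.

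**Figure D4:**
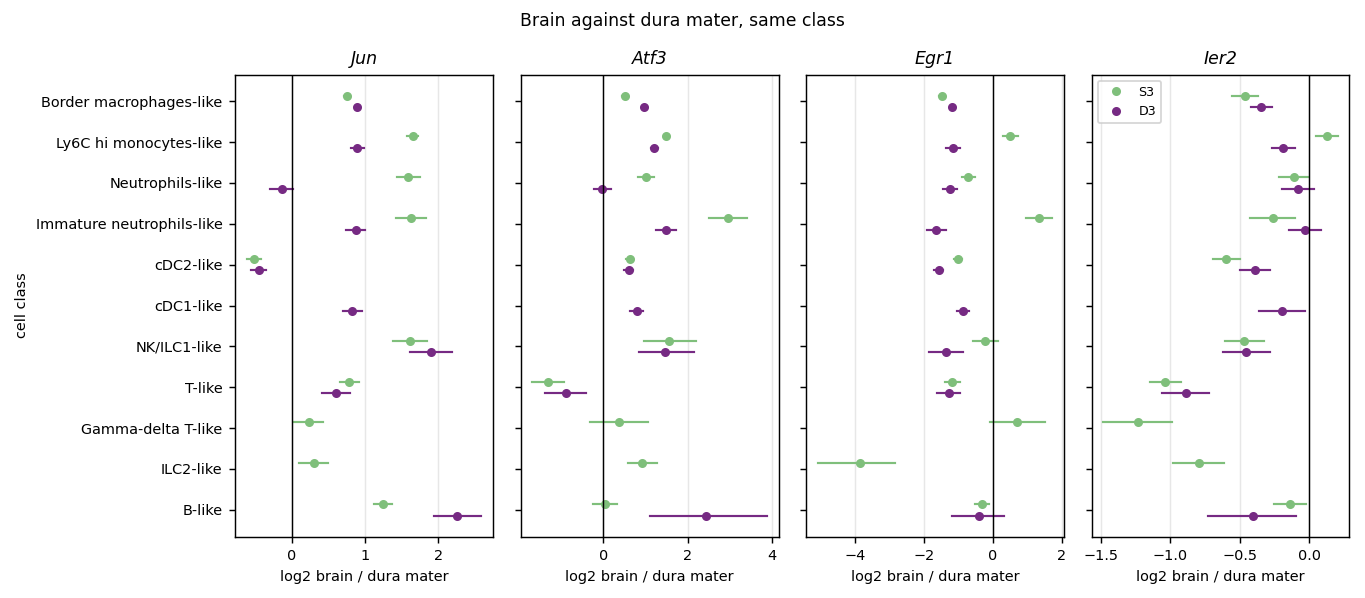
Log2 ratio of brain to dura mater for Jun, Atf3, Egr1 and Ier2 in each class at S3 (green) and D3 (purple), with 95% intervals for counting error. Jun and Atf3 lie mostly to the right of 0 and Egr1 and Ier2 mostly to the left.

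Infiltrating macrophage-like cells, which express Arg1, Gpnmb and Spp1, were numerous in brain D3 only (1082 cells). They held Fos at 2076 CPM, Junb at 2126, Dusp1 at 1159, Zfp36 at 872 and Atf3 at 852. Jun was 489, Btg2 343 and Egr1 58.0, and in border macrophage-like cells of the same library these were 4857, 994 and 823. Compared with Ly6C hi monocyte-like cells of brain D3 the median log2 ratio was 0.24. Fosb (304 and 172, log2 0.82), Dusp1 (1159 and 704, 0.72) and Atf3 (852 and 613, 0.47) were higher, and Btg2 (343 and 663, -0.95) and Ier2 (251 and 350, -0.48) lower. None of the 10 was past 2-fold in this comparison, where 20.5% of all genes were, but 2 were with classes from clusters. Border macrophage-like cells exceeded them 14.2-fold for Egr1 and 9.94-fold for Jun. In that comparison 4 of 10 members (with Btg2 and Ier2) were 2-fold or more lower in the infiltrating class, against 14.8% of all genes. The heat shock sum was 6845 in the infiltrating, 14835 in the border macrophage-like and 8227 in the monocyte-like class, and its part in these results was not tested.

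Within the neutrophil lineage the summed level of the mature class exceeded that of the immature one in all 4 libraries, and the exception among single members was Jun in brain D3 (283 and 346 CPM). In dura mater S3 Dusp1 was 1522 CPM in neutrophil-like cells and 110 in immature neutrophil-like cells (13.8-fold), Atf3 137 and 12.1 (11.4-fold), Btg2 2191 and 283 and Junb 3971 and 715. Fos differed least there (2277 and 1589). The median log2 ratio was 2.63 in dura mater S3, 1.67 in dura mater D3, 1.28 in brain S3 and 1.27 in brain D3. In that order 7, 7, 6 and 6 of the 10 members were 2-fold or more higher in the mature class, against 17.3%, 19.6%, 19.6% and 16% of all genes. The depth per cell differed as well, with medians of 5386.5 UMIs in the mature and 15105.5 in the immature class of dura mater S3. The heat shock sums of the mature and immature class were 3340 and 1942 in brain S3, 3138 and 2969 in brain D3, 2134 and 2377 in dura mater S3 and 2758 and 1918 in dura mater D3.

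The other genes of the pathway were read from fixed lists. Of 38 further early response genes 37 had at least 50 UMIs in microglia-like cells of the brain, and 1 was 2-fold or more higher and 6 lower at D3, beside 4.76% and 3.78% of all genes. Among them Jund, another AP-1 subunit, was 3513 CPM at S3 and 1638 at D3, and Rhob, a small GTPase, 2876 and 1337. In Ly6C hi monocyte-like cells 10 of 38 were higher and 2 lower, beside 4.94% and 3.56% of all genes. Zfp36l1, a relative of Zfp36, was 36.6 at S3 and 222 at D3, Ier3 213 and 897, and Klf2, a zinc finger factor of quiescent leukocytes, 517 and 198. In neutrophil-like cells 6 of the 36 measured were higher and 2 lower, beside 7.78% and 2.91% of all genes, with Socs3, a feedback inhibitor of cytokine signalling, at 147 and 435 and the nuclear receptor Nr4a1 at 925 and 365. Of 10 short-lived cytokine and chemokine mRNAs, 4 were 2-fold or more higher in each of these 3 classes and 1, Ccl3 in Ly6C hi monocyte-like cells, was 2-fold or more lower, and their medians were 0.49, 0.01 and 0.88. Among the further early response genes, the 1 higher in microglia-like cells and the 2 lower in each of the other classes lie near the shares of all genes. Of the 16 regulators upstream of these genes, such as Srf and the MAP kinases, the brain had 0 past 2-fold in the microglia-like (14 measured) and Ly6C hi monocyte-like classes (15) and 1, higher at D3, in the neutrophil-like class (14), beside 8.54%, 8.5% and 10.7% of all genes. Their medians were -0.32, -0.28 and -0.18.

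Between the tissues, border macrophage-like cells of brain S3 had 14 of 37 further early response genes 2-fold or more lower than dura mater S3 and 4 higher, beside 4.38% and 2.15% of all genes. At D3 5 of 37 were lower and 5 higher, beside 5.67% and 1.78%. Those lower at S3 included Nr4a3 (28.3 and 127 CPM), Nr4a2 (59.6 and 207) and Egr3 (23.0 and 86.4), relatives of Nr4a1 and Egr1. In B, T and NK/ILC1-like cells Klf2 was higher in brain S3 (2105 and 534, 1478 and 352, and 674 and 242).

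Warm dissociation is known to induce heat shock genes as well. Their summed level in the brain exceeded that of the dura mater in 9 of 10 classes at S3 and 9 of 9 at D3, and the sum of the members did so in 5 of 10 and 3 of 9. In border macrophage-like cells the heat shock sum was 17840 and 14835 CPM in brain S3 and D3 against 6379 and 7247 in the dura mater, and Hspa1a was 5480 in brain S3 and 576 in dura mater S3. In these cells the members summed to 16582 and 17764 in the brain and to 19146 and 17491 in the dura mater. Neutrophil-like cells had heat shock sums of 2134 to 3340, below the median of 7857 over groups, and summed member levels of 8285 to 12548, beside a median of 8817. Over the 48 groups the Pearson correlation of the members' mean level, as log2(CPM + 1), with the heat shock sum on that scale was 0.38. It was 0.17 with the median depth and -0.03 with the mitochondrial share. These points share 4 libraries and closely related classes, and the correlations are descriptions. Induction by dissociation was not tested, since no library was prepared another way.

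**Figure D5:**
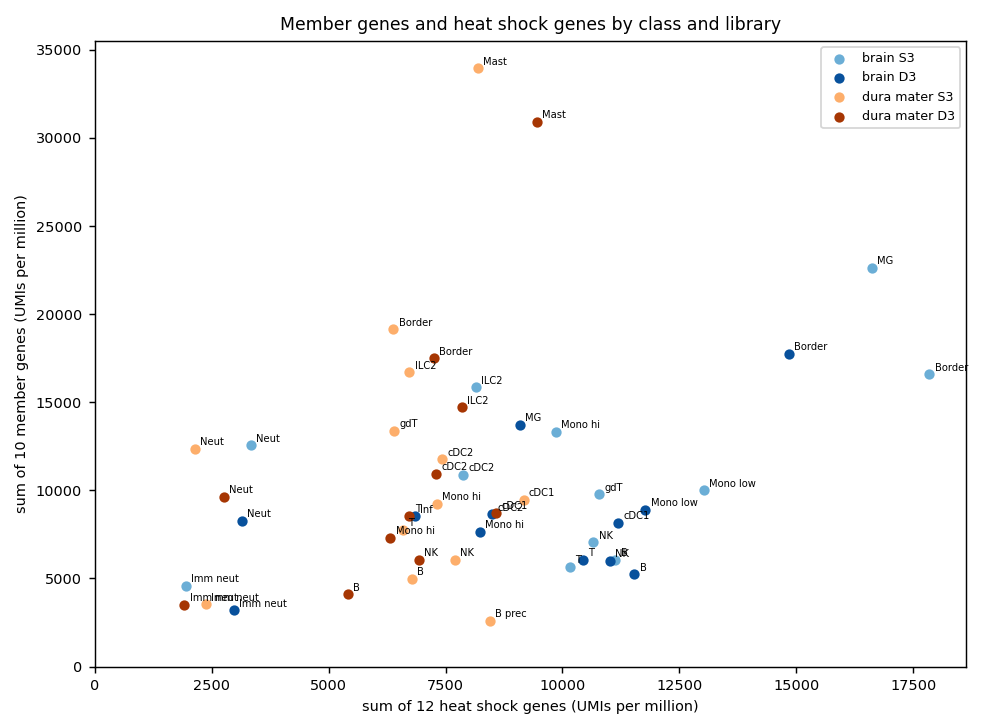
Summed level of the 10 member genes against the summed level of 12 heat shock genes, both in CPM, with 1 point per class and library. Mast cell-like cells (Mast) are highest for the members, at heat shock sums of 8194 and 9446. Microglia-like cells (MG) of brain S3 and border macrophage-like cells (Border) of the brain are high for both. Microglia-like cells of brain D3 have a heat shock sum of 9087, below the median of 9761 in that library.

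The 10 genes varied together only in part. Over the 48 groups the 45 pairs of members had a median Pearson correlation of 0.51, and 39 were above 0. The highest was 0.84 for Dusp1 and Zfp36, followed by 0.82 for Fosb and Junb, and the lowest was -0.23 for Ier2 and Btg2. Against the mean of the 10, to which each contributes, Zfp36 had the highest correlation (0.91) and Btg2 the lowest (0.13). Among the other genes with a mean of at least 20 CPM (5864 genes in all) the most alike were Rela (0.83), which encodes an NF-kappaB subunit, and Pros1, Ccnl1, Pttg1ip, Tmem88, Ptov1, Zfp467 and Mitf (0.78 to 0.80). The median over all genes compared was 0.06. In the GENCODE annotation Jun and Zfp36 overlap antisense genes, and Junb and Dusp1 overlap the opposite-strand genes Prdx2 and Ergic1. Atf3 overlaps the opposite-strand RNA gene Gm24748. Dusp1 also overlaps the pseudogenes AC122252.4 and Gm8225 and the intronic gene AC122252.1. Of these AC122252.4 and AC122252.1 lie on its own strand. Whether the counting used strand is not given in the sources used here.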

How the data were processed

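Each deposited matrix holds natural log values: per the submitters' processing notes, which name Cell Ranger 3.1.0, Seurat 3.1.0 and the mm10 build, and per the values, the authors had scaled each cell to 10000 UMIs, added 1 and taken the natural log. UMI counts had been assumed in the plan. They were recovered here, and every value gave a whole UMI within 1e-06.

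Cells were kept if their gene number was above 1000 and below 6000 and their mitochondrial share no higher than 7%. Scrublet's automatic threshold marked under 0.5% of barcodes, so the highest scores were removed instead, at 0.8% of a library per 1000 barcodes. This left 3618, 4438, 3439 and 2603 cells in brain S3, brain D3, dura mater S3 and dura mater D3, with 37590286, 72390201, 41709177 and 40479076 UMIs. A cell joined the class whose markers had the highest mean level (each relative to its 90th percentile, at least 0.3, with a lead of 0.05 within and 0.2 between lineages). These limits were set after the data were seen. Classes needed 50 cells in a library.

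UMIs were summed per class and library, with exact Poisson and binomial 95% intervals. A gene counted as past 2-fold at 50 or more UMIs in both groups together, and 50 UMIs were also the minimum for the share of all genes past it. With 1 library per condition no test was made. Thinning drew 2000 UMIs from each cell, leaving out shallower cells. Further genes were named from lists of early response genes, upstream regulators, cytokine mRNAs, heat shock genes and non-immune markers: at most 5 per list and comparison, those with the largest ratio past 2-fold and at least 200 UMIs. Clusters (Leiden) made without early response and heat shock genes, doublets kept, no filter, a stricter gate, thinning, equal weight per cell, centring and leaving out the top 1% of cells were the alternatives. The members and lists were chosen with earlier results of these data known. Interval coverage and UMI recovery were tested on simulated data. Tools were Python 3.11.15, numpy 2.4.6, scipy 1.17.1, pandas 2.3.3, scanpy 1.11.5, leidenalg 0.10.2 and matplotlib 3.10.9. How the labels' CT relates to S3 was read from the study's methods.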

Additional observations from a re-analysis of the deposited data

Results flagged for a closer look

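In 14 of 80 pairs of member and class the D3/S3 ratios of brain and dura mater had opposite signs, with both counting intervals off 0. In 3 of these both ratios were at least 0.5 (log2) from 0, and all 3 were below 0 in the brain and above 0 in the dura mater. The share of all genes that meet this rule was not computed. None of these differences between tissues was tested, since each rests on 4 single libraries.

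Egr1 in Ly6C hi monocyte-like cells was 84.3 and 45.3 CPM in brain S3 and D3 and 59.2 and 101 in dura mater S3 and D3, a brain minus dura mater difference of -1.67. After thinning the brain ratio was -1.37 and the dura mater ratio 0.87.

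Jun in neutrophil-like cells was 551 and 283 CPM in brain and 183 and 311 in dura mater, a difference of -1.73. In the dura mater 80.8% and 81.6% of these UMIs lay in 10% of the cells, and the dura mater ratio of 0.77 was -0.07 with classes from clusters, 0.21 with doublets kept and 1.43 without the top 1% of cells.

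Egr1 in immature neutrophil-like cells was 80.1 and 46.4 CPM in brain and 31.5 and 144 in dura mater, a difference of -2.98. After thinning the brain ratio was 0.20, so that both tissues then lay above 0, and the dura mater ratio 1.38.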

How the results depend on the processing

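Of 10 medians over the member genes, 9 kept their sign under all 8 alternatives, and that of neutrophil-like cells of brain S3 against dura mater S3 went from -0.10 to 0.050 after thinning. No paired analysis was possible because each condition is 1 library with no replicate number. For the brain (D3/S3), microglia-like cells (-0.65) gave -0.36 after thinning, -0.85 with no filter on cells, -0.70 with classes from clusters, -0.38 with equal weight per cell and -0.50 centred on the median of all genes. Ly6C hi monocyte-like cells (-0.81) gave -0.92 thinned, -0.95 with clusters and -0.89 with equal weight. Border macrophage-like cells (0.05) gave 0.33 with clusters and 0.21 with equal weight, and neutrophil-like cells (-0.67) gave -1.03 with clusters. For the dura mater, border macrophage-like cells (-0.16) gave -0.091 thinned, -0.27 unfiltered, -0.22 with a stricter gate, -0.11 with equal weight and -0.10 centred. Ly6C hi monocyte-like cells (-0.29) gave -0.38 thinned, -0.35 unfiltered, -0.50 with clusters, -0.40 with equal weight and -0.23 centred, and neutrophil-like cells (-0.20) gave -0.53 with clusters. For brain against dura mater at S3, border macrophage-like cells (-0.41) gave -0.33 thinned, -0.31 with clusters, -0.34 with equal weight and -0.34 centred, and neutrophil-like cells gave -0.19 centred. Infiltrating macrophage-like against Ly6C hi monocyte-like cells (0.24) gave 0.28 thinned and 0.14 with doublets kept.

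Counts of members past 2-fold moved more. Microglia-like cells of the brain had 1, but 0 after thinning or with equal weight and 3 with no filter. Ly6C hi monocyte-like cells had 2, but 4 with clusters, thinning or equal weight and 3 with no filter, the stricter gate or without the top 1% of cells. Neutrophil-like cells of the brain had 1, but 6 with clusters, 2 with doublets kept, thinning or equal weight and 0 with no filter. In the dura mater Ly6C hi monocyte-like cells had 0, but 1 under 5 alternatives, and neutrophil-like cells had 0, but 1 without the top 1% of cells. Infiltrating macrophage-like cells had 0 against monocyte-like cells, but 2 with clusters and 1 with the stricter gate. The causes were not tested. Of 800 values of single members under an alternative, 755 kept the sign of the reported value. The 56 whose reported value was past 2-fold all kept its sign, and 48 of them were still past 2-fold. Each reported value enters these counts under all 8 alternatives. The lowest levels of Atf3, in B cell-like cells of dura mater D3, and of Egr1, in ILC2-like cells of brain S3, rest on 8 UMIs each.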
